A study of Mus musculus with 2 samples.

Results

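The miRNA genes Mir673, Mir493, Mir337, Mir540, Mir665, Mir431, Mir433, Mir127, Mir434 and Mir136 form the upstream miRNA cluster of the imprinted Dlk1-Dio3 domain on mouse chromosome 12. They were chosen by name, as the rows of the deposited tables whose Ensembl identifiers carry these symbols in GENCODE M21, and all 10 were found among the 2202 miRNA genes of the tables. The rule for membership uses no measured value, but the cluster was picked for description with earlier results of these data known.

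The series holds small RNA libraries of 1 group, whole adrenal gland of the inbred mouse strain C57BL/6J, obtained from The Jackson Laboratory, with no treatment and no contrast of conditions. The labels number the libraries as biological replicates 1 and 2 but give both the same donor record, so separate animals are not shown. P-values tell only whether these libraries differ by more than counting error, and such a difference may be technical. Age is unknown, and the labels name wild-type males in free text but list sex as not collected. Inserts were below 30 nt per the labels, and whole tissue was used, so fewer cells of a type and less RNA per cell cannot be told apart.

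Replicate 1 held 10263894 counts on miRNA genes of 20598186 reads, and replicate 2 held 3525666 of 10628898. Counting error is therefore smaller in replicate 1. Levels are given as CPM, each count on the strand of the gene being scaled to the library's total of such counts. All 4 neuroendocrine marker miRNA genes were detected, with a summed 73420 and 80086 CPM, mostly from Mir375 (68022 and 76044 CPM). The endothelial marker Mir126a had 89916 and 95595 CPM, and smooth muscle markers summed to 25619 and 26619 CPM. In contrast, 4 of 5 muscle markers were listed at 0 and the other, Mir206, had 2.14 and 2.55 CPM. Those 4 are the paired loci of miR-1a and miR-133a, known to give the same main arm from both copies. Reads mapping to several loci entered no gene, so their 0 does not show that muscle RNA was absent. Red blood cell markers summed to 8370 CPM in replicate 1 and 1814 in replicate 2, with 2 of 3 detected and none at 0.

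In the Dlk1-Dio3 domain the protein-coding genes Dlk1, Rtl1 and Dio3 are expressed from the paternal chromosome, and the noncoding RNAs Meg3, Rian and Mirg, with most miRNAs of the domain, from the maternal one. Rtl1 is a gene derived from a retrotransposon and is needed in the mouse placenta and fetal vessels. An antisense transcript over Rtl1 carries miRNA hairpins that pair perfectly with the Rtl1 mRNA, and in the mouse these miRNAs are known to guide its cleavage. A miRNA hairpin is cut into a 5p and a 3p arm, and the seed, bases 2 to 8 of the arm, is the main contact with targets.

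On mm10 the cluster spans 23399 bases of the + strand, from Mir673 at chr12:109571990-109572080 to Mir136 at chr12:109595327-109595388. Mir673 begins 264 bases past the annotated end of Meg3 (chr12:109541001-109571726). Mir493 (chr12:109580233-109580315) follows after 8152 bases. Mir337 (chr12:109585789-109585885), Mir540 (chr12:109586080-109586146) and Mir665 (chr12:109586314-109586407) form a tight group, with gaps of 194 and 167 bases. These 5 genes lie in no exon of Rtl1 in GENCODE M21 and are called the upstream members here.

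The other 5 members lie on the strand opposite Rtl1 (chr12:109589193-109600330, - strand), each wholly within the coding part of its exon 2. Counted from the start codon of Rtl1, Mir136 covers codons 6 to 26, Mir434 (chr12:109594506-109594599) codons 269 to 300 and Mir127 (chr12:109592846-109592915) codons 830 to 853. Mir433 (chr12:109591715-109591838) covers codons 1189 to 1230 and Mir431 (chr12:109590447-109590537) codons 1623 to 1653 of 1745, the stop codon included. The name of an Rtl1 antisense cluster thus fits 5 of the 10 members in GENCODE M21. The RefSeq record of Rtl1 on the same assembly is longer, chr12:109564900-109604418, and covers all 10, though its exons were not used here.

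The mature arms of the 5 members opposite Rtl1 are shown because they are the molecules whose sequence is set by the Rtl1 coding region. They are RefSeq sequences on GRCm38.p6, written 5′ to 3′, with the seed in capitals.
miR-431-5p: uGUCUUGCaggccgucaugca
miR-431-3p: cAGGUCGUcuugcagggcuucu
miR-433-5p: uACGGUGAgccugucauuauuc
miR-433-3p: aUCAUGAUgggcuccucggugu
miR-127-5p: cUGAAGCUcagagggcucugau
miR-127-3p: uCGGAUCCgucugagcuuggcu
miR-434-5p: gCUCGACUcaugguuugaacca
miR-434-3p: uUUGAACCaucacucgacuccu
miR-136-5p: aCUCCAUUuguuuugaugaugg
miR-136-3p: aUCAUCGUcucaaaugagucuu

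The reverse complement of each of these 10 arms, over its full length, was found in the GENCODE M21 Rtl1 transcript of 6358 bases, and so was that of each of the 5 whole hairpins. The miR-127-3p site begins at base 2642 of that transcript, and the site of miR-136-3p, nearest the start codon, at base 164. None of the 10 arms of the upstream members has such a site in this transcript.

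The arms of the upstream members are shown for comparison, with the seed in capitals.
miR-673-5p: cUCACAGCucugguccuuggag
miR-673-3p: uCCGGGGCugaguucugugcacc
miR-493-5p: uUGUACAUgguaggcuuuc
miR-493-3p: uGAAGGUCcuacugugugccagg
miR-337-5p: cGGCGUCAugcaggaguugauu
miR-337-3p: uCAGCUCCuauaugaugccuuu
miR-540-5p: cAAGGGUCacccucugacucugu
miR-540-3p: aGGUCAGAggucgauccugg
miR-665-5p: aGGGGCCUcugccucuauccaggauu
miR-665-3p: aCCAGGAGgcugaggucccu

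All 10 members matched the RefSeq table, at the same positions and with the same hairpin sequence as in GENCODE M21. The 20 arms carry 20 different seeds, so no pair of members shares one and the cluster is not a seed family. Only 2 arms share a seed with a miRNA of another gene in the RefSeq table. The seed of miR-673-5p recurs in miR-6985-3p, whose gene Mir6985 on chromosome 19 had 11 and 4 counts. The seed of miR-540-3p recurs in miR-6915-5p, whose gene Mir6915 on chromosome 10 had 2 counts in each replicate.

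The arms ran from 19 to 26 bases, with 12 of 20 at 22 bases. A U opens 8 arms, an A 6, a C 5 and a G 1. Hairpin GC content ran from 40.3% for Mir136 to 61.5% for Mir673. The predicted folding energy (RNAfold) ran from -49.4 kcal/mol for Mir337 to -28.2 kcal/mol for Mir136, the shortest hairpin with 62 bases. Those of Mir127 and Mir434 were -35.1 and -37.4 kcal/mol.

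Whether reads can be placed decides what the counts mean, since reads mapping to several loci entered no gene. The longest stretch that any member shares, on either strand, with a miRNA gene at another locus of the tables was 14 bases (Mir493 and Mir665), and the shortest such maximum was 11. No member thus shares 20 bases with another miRNA gene. Copies elsewhere in the genome were not searched.

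The hairpin of Mir434 holds a repeat within itself. The run gguuugaacca occurs 3 times, at bases 10, 34 and 58, the middle copy closing miR-434-5p and the last one overlapping the start of miR-434-3p. Both hairpins below have their mature arms in capitals, that of Mir127 being shown because it gives most reads of the cluster.
Mir434: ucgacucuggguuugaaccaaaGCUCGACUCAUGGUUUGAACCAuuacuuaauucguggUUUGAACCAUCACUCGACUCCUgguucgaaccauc
Mir127: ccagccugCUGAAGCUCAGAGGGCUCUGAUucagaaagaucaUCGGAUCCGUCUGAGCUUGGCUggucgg

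The arms of Mir434 share 9 bases (uuugaacca) and those of Mir431 share 10 (gucuugcagg). In the other 8 members the longest run common to both arms was 3 to 6 bases. Counts stand for whole hairpin genes, and the division of reads between 5p and 3p arms was not measured for any member.

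The cluster was expressed in the adrenal gland, and its level came mostly from Mir127. The 10 members together took 2.29% of miRNA counts in replicate 1 (235440 counts, Wilson 95% interval 2.28% to 2.30%) and 1.84% in replicate 2 (64764 counts, 1.82% to 1.85%). Their mean share was 2.07% ± 0.32 (SD, n = 2). The replicates lay further apart than their counting intervals, which cover counting error only because PCR copies cannot be told from separate molecules.

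All 10 members reached 10 CPM in both replicates, the level called detected here, while 12.1% of all 2202 miRNA genes did (267 genes). The median member had a mean of 394 CPM, and the median of all 2202 genes was 0. In the Mir379 to Mir410 cluster, the second miRNA cluster of the domain further along the chromosome, 31 of 43 annotated miRNA genes were detected and the median was 74.5 CPM. Those 43 are all miRNA genes annotated in that span, on either strand. The members are a named list that leaves out other miRNA genes within their own span, so these figures do not compare like sets.

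Mir127, whose product miR-127-3p is reported to repress BCL6 in human cells, led the members. It had 185457 counts (18069 CPM) in replicate 1 and 50097 counts (14209 CPM) in replicate 2, a mean of 16139 ± 2729 CPM (SD, n = 2). It ranked 13th of all miRNA genes in replicate 1 and 16th in replicate 2. Mir127 alone made up 78.8% of the members' counts in replicate 1 and 77.4% in replicate 2, with Wilson intervals of 78.6% to 78.9% and 77.0% to 77.7%. It stood 12.2-fold above the next member, a gap far wider than the spread between replicates.

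Mir433 and Mir431 lie before Mir127 on the + strand and were next in level. Mir433, whose product is reported to target HDAC6 in human cells, had 1524 CPM in replicate 1 and 1127 in replicate 2. Mir431, whose product is reported to target Pax7 in mouse muscle satellite cells, had 1021 and 1140 CPM. The order of this pair reversed between replicates, with Mir433 higher in replicate 1 and Mir431 in replicate 2.

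Mir434 and Mir136 lie nearest the start codon of Rtl1 and were lower. Mir434 had 478 CPM in replicate 1 and 504 in replicate 2, a mean of 491 ± 17.9 CPM (SD, n = 2). Mir136 had 106 and 95.3 CPM, a mean of 100 ± 7.29 CPM. They are separated by 727 bases, yet Mir434 exceeded Mir136 in each replicate and their ranges did not overlap. Along the + strand the level was thus similar in Mir431 and Mir433, highest in Mir127 and lower again in Mir434 and Mir136.

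**Figure D1:**
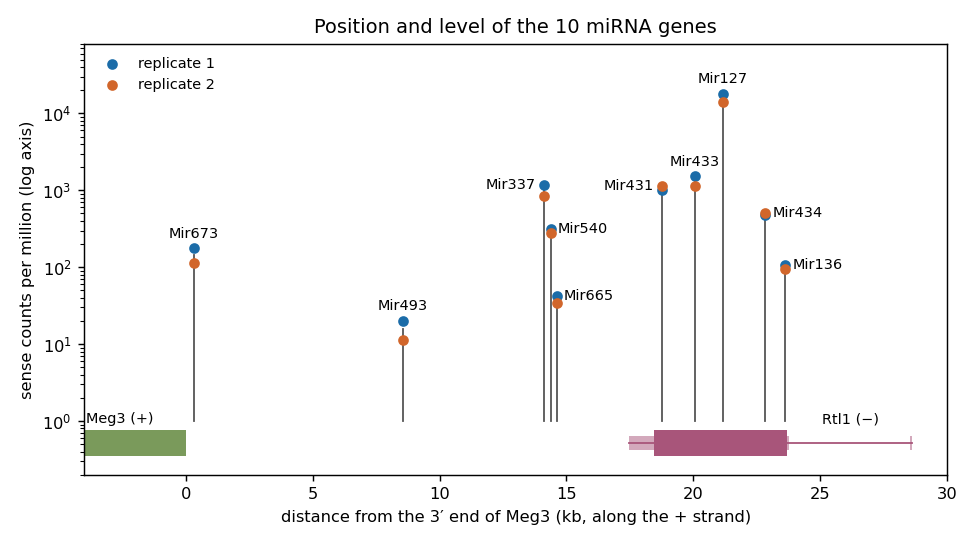
Each stem is 1 member at its distance in kb from the 3′ end of Meg3, with CPM of sense counts on a log axis, blue for replicate 1 and orange for replicate 2, and the stem reaching the mean. Boxes below mark Meg3 (green, cropped on the left) and Rtl1 (purple, with the coding part dark), and Mir127 stands at 18069 and 14209 CPM above its 4 neighbours within the coding part.

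Among the upstream members Mir337 was highest, with 1190 CPM in replicate 1 and 854 in replicate 2. Mir540, 194 bases further along, had 312 and 281 CPM, a mean of 297 ± 21.98 CPM (SD, n = 2). Mir665, 167 bases beyond it, had 42.7 and 34.6 CPM. Within this group of neighbours each gene along the + strand was lower than the one before it in both replicates, and no ranges overlapped.

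Mir673, beside the end of Meg3, had 1806 counts (176 CPM) in replicate 1 and 398 counts (113 CPM) in replicate 2. Mir493, whose product is reported to restrain liver metastasis of human colon cancer cells, was the lowest member. It had 207 counts in replicate 1, or 20.2 CPM with a Wilson interval of 17.6 to 23.1, and 40 counts in replicate 2, or 11.3 CPM with an interval of 8.33 to 15.4. In replicate 2 the interval of Mir493 includes the detection level of 10 CPM, so its detection there is not firm.

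The 5 members opposite Rtl1 held 92.4% of the cluster's counts in replicate 1 and 93.0% in replicate 2, and the 5 upstream members the other 7.59% and 7.04%. As shares of all miRNA counts these were 1.91% ± 0.29 (SD, n = 2) and 0.152% ± 0.032. Without Mir127 the remaining 4 members opposite Rtl1 held 0.2998% ± 0.0186, against the same 0.152% ± 0.032 upstream. The levels of both groups overlapped gene by gene, since Mir337 upstream lay above Mir434 and Mir136.

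**Figure D2:**
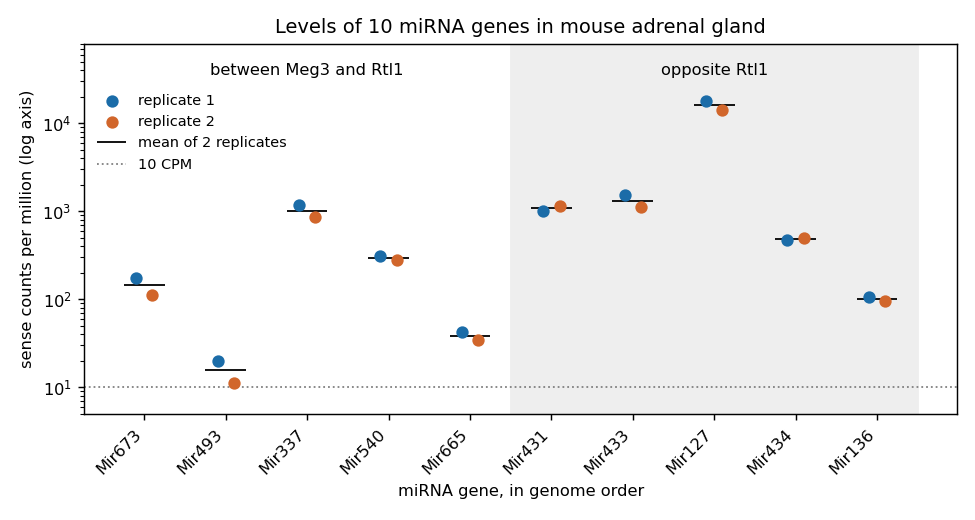
Points give CPM of sense counts on a log axis for each member in genome order, blue for replicate 1 and orange for replicate 2, with black lines at the mean of the replicates and a dotted line at 10 CPM. Members opposite Rtl1 are shaded; every point lies above the dotted line, from 11.3 CPM for Mir493 to 18069 CPM for Mir127.

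By mean level the order was Mir127, Mir433, Mir431, Mir337, Mir434, Mir540, Mir673, Mir136, Mir665 and Mir493, with a 1024-fold range from first to last. Counts were not calibrated between different miRNAs. This order, like the lead of Mir127, is therefore one of read counts and need not be one of molecules. Of the 9 pairs of neighbours in that order, 7 had replicate ranges that did not overlap. The exceptions were Mir433 with Mir431 and Mir431 with Mir337, which do not differ beyond their spread. Reads here are about as long as a mature miRNA, so counts were not divided by hairpin length. Dividing by it puts Mir127 first at 231 CPM per hairpin base, then Mir431 at 11.9 and Mir433 at 10.7, and puts Mir136 (1.62) above Mir673 (1.59), with no other change of order.

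The replicates differed at most members by more than counting noise. By an exact two-sided binomial test on TMM-scaled libraries with Benjamini-Hochberg adjustment over 443 miRNA genes, 7 of 10 members passed, against 52.8% of all genes tested. Of the members, 6 were higher in replicate 1, where 31.6% of all genes were, and 1 was higher in replicate 2, where 21.2% were. The test compares 2 libraries and not conditions, and deep genes pass at small ratios.

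All 5 upstream members had ratios below 0, from -0.17 for Mir540 to -0.83 for Mir493 (log2 of replicate 2 over replicate 1). The median of all 443 tested genes was also -0.17, so most tested genes lay below 0 and Mir540 lay at that median. The log2 ratio was -0.66 for Mir673 with a 95% binomial interval of -0.82 to -0.50, and -0.50 for Mir337 with an interval of -0.55 to -0.44. That of Mir493 had an interval of -1.37 to -0.35, wide because it rests on 207 and 40 counts. By the exact binomial test the adjusted p was 0.0028 for Mir540 and 0.000849 for Mir493, while Mir665 did not pass (log2 ratio -0.32, adjusted p = 0.0561). With median-of-ratios size factors in place of TMM, Mir540 did not pass either (adjusted p = 0.0756, exact binomial test). Those size factors were taken over all genes with a count in both replicates, genes near the floor included.

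The members opposite Rtl1 went both ways. Mir127 had a log2 ratio of -0.36 (95% interval -0.38 to -0.35) and Mir433 one of -0.45 (-0.50 to -0.40), so both were lower in replicate 2. Mir431 was higher in replicate 2, with a ratio of 0.14 (0.09 to 0.19, adjusted p = 4.75e-07 by the exact binomial test). Mir434 (0.06, adjusted p = 0.244) and Mir136 (-0.16, adjusted p = 0.121) did not pass the exact binomial test. With median-of-ratios size factors, which include genes near the floor, Mir434 passed it, at a ratio of 0.12 (adjusted p = 0.00756).

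The median member lay 1.27-fold apart between replicates, and the median of all 443 tested genes 1.36-fold. The median was 1.41-fold for the upstream members and 1.12-fold for those opposite Rtl1. The median log2 ratio was -0.34 for the 10 members, -0.50 for the upstream members, -0.16 for those opposite Rtl1 and -0.17 for all tested genes. Reads that did not map were 13.8% of replicate 1 but 41.4% of replicate 2. The summed red blood cell markers, and the liver marker (104 and 97.6 CPM), moved in the same direction as most members. Marker sums of neuroendocrine cells, endothelium, smooth muscle, leukocytes, muscle, and kidney and gut went the other way. For leukocytes they were 508 CPM in replicate 1 and 876 in replicate 2. The part of unmapped reads or of any cell type in these ratios was not tested.

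**Figure D3:**
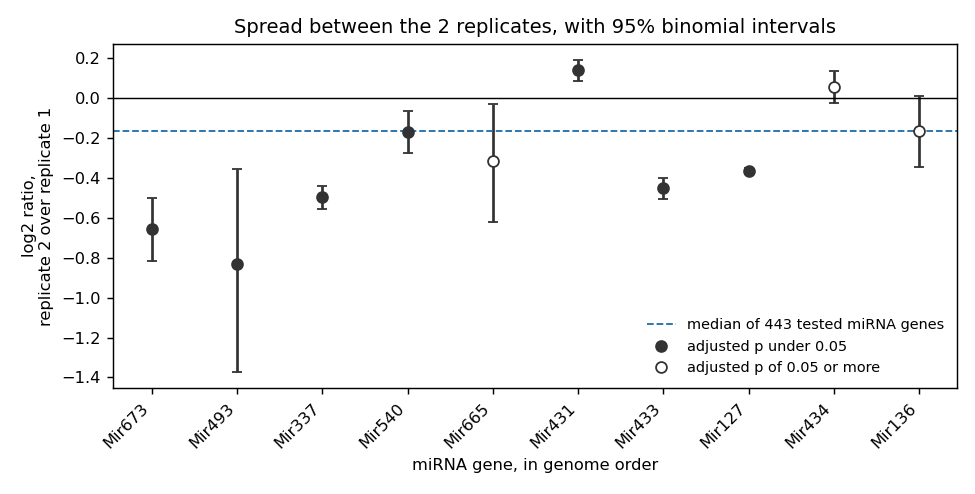
Points give the log2 ratio of replicate 2 over replicate 1 for each member in genome order, with 95% binomial intervals, and the dashed line is the median of the 443 tested miRNA genes (-0.17). Filled points passed the exact binomial test after adjustment; the upstream members, Mir673 to Mir665, all lie below 0, and Mir431 lies at 0.14.

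Shares within the cluster do not depend on the scaling of the libraries. Mir431 held 4.45% of the members' counts in replicate 1 (Wilson interval 4.37% to 4.54%) and 6.21% in replicate 2 (6.02% to 6.39%). Mir434 held 2.09% (2.03% to 2.14%) and 2.74% (2.62% to 2.87%). The shares of Mir337 were 5.19% (5.10% to 5.28%) and 4.65% (4.49% to 4.81%). Each of these 3 shares thus differed between the libraries by more than counting error. The shares of Mir431 and Mir434 moved in the same direction, and ratios between pairs of members were not tested.

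Mir337 and Mir136 have a miRNA gene annotated on the opposite strand, Mir3544 (chr12:109585813-109585873, - strand) and Mir3071 (chr12:109595318-109595397, - strand). The arms of these genes are shown because they nearly mirror those of Mir337 and Mir136 above, with the seed in capitals.
miR-3544-5p: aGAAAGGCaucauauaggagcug
miR-3544-3p: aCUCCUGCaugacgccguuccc
miR-3071-5p: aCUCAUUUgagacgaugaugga
miR-3071-3p: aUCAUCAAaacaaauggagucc

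At the Mir337 locus the opposite strand gave reads in both libraries. Mir3544 had 117 counts (11.4 CPM) in replicate 1 and 70 counts (19.9 CPM) in replicate 2. It passed the detection level of 10 CPM only narrowly in replicate 1, so its detection there is not firm. Its log2 ratio was 0.79 (95% interval 0.33 to 1.22), higher in replicate 2, while that of Mir337 was -0.50. Of all reads over Mir337, 1.13% lay on the opposite strand in replicate 1 (139 reads, Wilson interval 0.954% to 1.33%) and 2.43% in replicate 2 (75 reads, 1.94% to 3.04%).

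At the Mir136 locus the opposite strand was nearly silent. Mir3071 had 2 counts in replicate 1 and 1 in replicate 2, against 1084 and 336 for Mir136. Those reads were 0.184% and 0.297% of the reads over Mir136, with Wilson intervals of 0.0505% to 0.669% and 0.0524% to 1.66%. The interval of Mir136 in replicate 2 overlaps the interval of Mir337 in replicate 1 but not that of Mir337 in replicate 2.

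The other 8 members have no miRNA gene annotated opposite them, and their opposite strand held at most 1 read in either replicate. Mir127 had 1 such read in each replicate beside 185457 and 50097 on its own strand. Reads of Rtl1 itself, the gene on that strand, would stand in this column for the 5 members within its coding exon, but inserts below 30 nt do not measure its mRNA.

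The deposited column that ignores strand misses Mir337 and Mir136. It gave 22 and 5 counts at Mir337, where the stranded column gave 12209 and 3010, and 0 counts in both replicates at Mir136. The tables set aside reads over overlapping genes as ambiguous in that column. The 22 and 5 counts equal the opposite-strand reads over Mir337 that lie outside Mir3544, so this column holds no read from the strand of Mir337. For the other 8 members both columns differed by at most 1 count. The cluster's levels therefore rest on the stranded column.

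**Figure D4:**
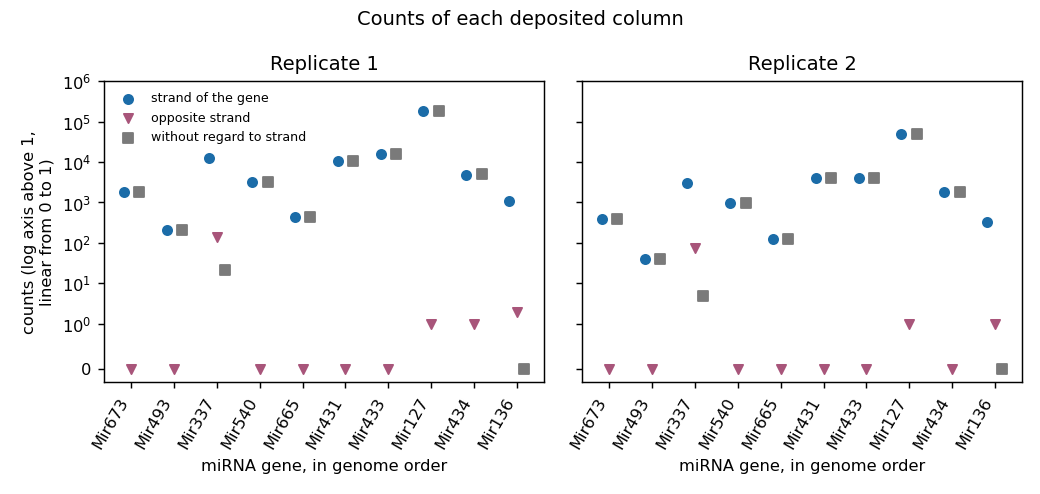
For each member in genome order, blue circles give counts on the strand of the gene, purple triangles counts on the opposite strand and grey squares counts without regard to strand, in replicate 1 (left) and replicate 2 (right), on an axis that is logarithmic above 1 and linear from 0 to 1. At Mir337 and Mir136 the grey squares fall away from the blue circles, to 22 and 5 and to 0 counts.

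Between the first and last member the annotation holds 3 further miRNA genes on the + strand. Mir3070a had 34 counts in replicate 1 and 7 in replicate 2, and Mir3070b had 35 and 1. RefSeq gives both the same 5p arm, whose reads would map to both loci, so these counts are uncertain. Mir432 had no count, which allows at most 0.292 CPM in replicate 1 and 0.851 in replicate 2 for uniquely mapped reads. By uniquely mapped counts these 3 genes lay below every member of the cluster. The shared 5p arm leaves that place undecided for Mir3070a and Mir3070b.

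Within the whole domain, where 67 miRNA genes are annotated, the 10 members held 35.7% of counts in replicate 1 (Wilson interval 35.6% to 35.8%) and 32.6% in replicate 2 (32.4% to 32.8%). The Mir379 to Mir410 cluster held 62.7% and 64.8%. Mir127 lay above each gene of that cluster in both replicates. The highest there were Mir411, with 12790 and 12843 CPM, and Mir379, with 10514 and 9287 CPM. Of 33 tested genes in that cluster, 13 were higher in replicate 2 and 12 in replicate 1 by the exact binomial test, with a median log2 ratio of 0.02, beside 1 and 6 of the 10 members with a median of -0.34. The difference between the clusters was not tested.

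The miRNA genes nearest in level to 3 of the members were taken as those at the smallest distance on log2(CPM + 1) over both replicates, which compares 2 samples only. Those nearest Mir127 were Mir322 on the X chromosome (17149 and 15718 CPM), Mir411, and Mir139 on chromosome 7 (17967 and 24921 CPM). Nearest Mir434 were Mir485 of the same domain (489 and 462 CPM), Mir497 and Mir92-1. Nearest Mir136 were Mir122 (104 and 97.6 CPM), Mir222 and Mir329, the last also from the Dlk1-Dio3 domain. Of these 9 genes, 3 lie on chromosome 12, all in the Dlk1-Dio3 domain, which holds 48 of the 267 detected miRNA genes. Their number was not tested against that share.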

How the data were processed

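MicroRNA counts of 2 adrenal gland libraries (1 group) were used. The authors deposited raw counts per miRNA gene in 3 columns without a header. The build is mm10 per the labels, and the text deposited beside each table names annotation M21 (GENCODE). Aligner and counter: not given in the sources used here. The columns were read as counts without regard to strand, on the strand of the gene and on the opposite strand, from their sums and ambiguous reads. The 4 summary lines stayed out of all totals: unmapped and multimapping reads made up 13.8% and 32.6% of replicate 1 and 41.4% and 22.7% of replicate 2, and reads outside miRNA genes 3.80% and 2.65%.

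CPM was computed over the 10263894 and 3525666 stranded counts, which set a floor of 0.292 and 0.851 CPM at 3 counts. Libraries were scaled by TMM (edgeR 4.0.16, R 4.3.3) for an exact two-sided binomial test of every gene with at least 10 counts over both replicates, with 0.5 counts added to ratios and a threshold of 0.05 after Benjamini-Hochberg adjustment. It was tried on data simulated with counting noise alone, with total counts as library sizes. That trial does not cover further spread between libraries. Wilson and exact binomial 95% intervals were used. Alternatives were other scalings (total counts, DESeq2 1.42.0 size factors), filters, columns, thresholds and single replicates. Sequences came from RefSeq (GRCm38.p6) and GENCODE M21, and folding energies from RNAfold 2.7.2. Python 3.11.15 with scipy 1.17.1, pandas 2.3.3, numpy 2.4.6 and matplotlib 3.10.9 was used.

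All 10 members are named, with genes overlapping or between them, genes sharing a seed, the 3 nearest in level to Mir127, Mir434 and Mir136, and the 2 highest of the Mir379 to Mir410 cluster. The members and lists were chosen with earlier results of these data known.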

Additional observations from a re-analysis of the deposited data

Results flagged for a closer look

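On the strand opposite Mir337, outside the annotated hairpin of Mir3544, 22 reads were found in replicate 1 and 5 in replicate 2. This column enters no level above, and both counts exceed the 3 counts that a count of 0 allows. No other member had reads above that limit opposite it outside an annotated miRNA gene. With 2 replicates in 1 group, no test for a sample far from the others applies.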

How the results depend on the processing

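Of 106 values recomputed under an alternative, 94 counted as unchanged and none reversed. That meant, for a ratio, keeping its direction and side of the threshold. For a level or share it meant moving by less than the spread between replicates. Numbers of members had a wider margin. Members detected fell from 10 to 7 at 100 CPM and to 8 without regard to strand, and still counted as unchanged. Leaving out 1 replicate always moves a mean by less than the spread between replicates. Such values could therefore not count as changed, nor could calls with 5 counts added. Leaving Mir127 out lowered the summed share from 2.07% to 0.459%. Counts without regard to strand raised the share of Mir127 to 82.5%, left Mir337 at 2.03 CPM and Mir136 at 0, and gave 339 CPM for Mir540, 1234 for Mir431 and 561 for Mir434, as ambiguous reads leave that column's total. The value of -0.43 there for Mir337 (adjusted p = 0.772, exact binomial test) rests on 22 and 5 reads of the opposite strand alone, so it is no ratio of Mir337 and does not bear on its call. Mir540 did not pass under size factors (-0.11) or without regard to strand (-0.090), and Mir434 passed under both (0.12 and 0.13). The members called stayed at 7 under total counts, size factors and no filter, and were 6 without regard to strand. There Mir337 and Mir540 dropped out and Mir434 came in. Mir136, not called in the main test either, had no counts there to test. Over all genes, calls ran from 206 to 234. The median log2 ratio of all tested genes was -0.17, and -0.06 with no filter or 0.02 with 5 counts added. The added counts enter the ratio and not the test, and with 5 added no member's ratio changed sign. Depth limits Mir493, with 207 and 40 counts. No paired analysis was possible because the series has 1 group.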

Other observations

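Mir770, which lies within the span of Meg3 before the cluster and was singled out after its values were seen, had 369.5 CPM in replicate 1 and 208.8 in replicate 2. Its log2 ratio was -0.84 (95% interval -0.96 to -0.73). Those of all 5 upstream members were also below 0, as was the median of all tested genes (-0.17). Mir341, the first miRNA gene past Mir136 and also singled out afterwards, had 419 and 346 CPM and a ratio of -0.29 (-0.39 to -0.20). In mean level Mir770 (289 CPM) lay just below Mir540, and Mir341 (382 CPM) between Mir540 and Mir434. Mir370, also past Mir136 and chosen in the same way, went the other way, with 79.6 and 246 CPM and a ratio of 1.61 (1.47 to 1.75).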
